A study of Mus musculus with 12 samples.

Results

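The CCN proteins and the YAP-TEAD pathway were followed as 10 transcripts in mouse heart ventricle. They were the CCN genes Ccn1, Ccn2, Ccn3, Ccn4 and Ccn5, the target genes Thbs1 and Amotl2, the coactivators Yap1 and Wwtr1, and the DNA-binding factor Tead1. The genes were chosen by symbol from a count table of 55421 genes, and all 10 were found and passed the filter on low counts. The choice rested on the measured values: Ccn2 was selected for being higher with Ang II and not lower with FI. Values in those 2 comparisons are therefore given for the 10 genes as a description, with no p-value, and counts of calls among them support nothing.

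RNA was sequenced from the ventricles of wild-type (WT) mice, 4 libraries in each of 3 groups. Controls were given saline + vehicle. A second group was given Ang II + vehicle: angiotensin II is the effector peptide of the renin system, which constricts vessels and brings on hypertrophy of the heart, and it came from a minipump placed under the skin on day 0. A group called Ang II + FI had the same pump and Forsythoside I (FI), a plant phenylethanoid glycoside, injected into the peritoneum at 50 mg/kg every other day, from the day before infusion to day 14. All mice carried the same genotype; strain, age, sex and the dose of angiotensin II are not in the labels used here. No group received FI with saline, so no effect of FI alone was measured. The labels give 4 samples per group without naming the animal of each library, so the p-values measure the spread between these libraries.

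CCN proteins are secreted matricellular proteins, which sit in the extracellular matrix and act on cells through integrins and co-receptors rather than as structural fibres. YAP (Yap1) and TAZ (Wwtr1) are transcriptional coactivators held in the cytoplasm when the Hippo kinases are active. In the nucleus they bind TEAD factors and raise transcription of genes such as Ccn1, Ccn2, Ankrd1 and Amotl2. In the heart, CCN2, also called connective tissue growth factor, is known from hypertrophy and fibrosis.

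TEAD factors bind the letters GGAATG or the reverse complement CATTCC. RefSeq's promoter table (GRCm38.p6) held windows for 4 of the 10 genes, namely Ccn1, Amotl2, Yap1 and Wwtr1, and the 250 bases before each start were searched on both strands. Each of these genes had the letters there, as did 12.6% of all 32851 windows of that length. The sites are shown because they are the sequence element by which the pathway is defined. A match of letters is a description and not evidence of binding. The sequences read 5′ to 3′ along the gene's strand, with the TEAD letters in capitals. The site of Ccn1 is at chr3:145650071-145650100 on the minus strand, with the letters 103 to 98 bases before the start. That of Amotl2 is at chr9:102717727-102717756 on the plus strand, 65 to 60 bases before the start. It lies inside the annotated span of the gene, which begins at 102716672. For Yap1 it is at chr9:8004720-8004749 on the minus strand, 141 to 136 bases before the start. The site of Wwtr1 is at chr3:57576029-57576058 on the minus strand, 136 to 131 and 170 to 165 bases before its 2 starts.
Ccn1: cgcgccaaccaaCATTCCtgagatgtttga
Amotl2: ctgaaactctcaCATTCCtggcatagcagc
Yap1: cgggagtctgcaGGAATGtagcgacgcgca
Wwtr1: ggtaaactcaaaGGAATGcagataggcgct
The AP-1 letters TGANTCA were in none of these windows and in 6.75% of all windows, and the CArG box, the element of serum response factor, was in none and in 1.47% of all.

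The libraries held 68874852 to 80624227 counts, of which 29.1% to 38.8% were mitochondrially encoded. A single count equalled 0.0124 to 0.0145 CPM (counts scaled to a library total of 1000000). Cardiomyocyte markers summed to 20400 to 31100 CPM, and none of the 8 was at 0 in a library. The library Ang II + FI 3 stood apart, with 24900 CPM on 15 hepatocyte markers, against 45.6 CPM in Ang II 3 and 2.34 to 9.21 CPM in the other 10 libraries. Of the hepatocyte markers, 13 of 15, Alb and Apoa1 among them, were at 0 in at least 1 library. Values without Ang II + FI 3 are given beside those of all 12 libraries.

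Ccn2 (connective tissue growth factor, chromosome 10, 24595442 to 24598683, GRCm38) was more than doubled in the ventricles given Ang II and stayed there with FI. The saline libraries held 59.5, 57.0, 56.0 and 57.8 CPM. The Ang II libraries held 111, 132, 130 and 161 CPM. The Ang II + FI libraries held 140, 134, 154 and 125 CPM. Every library given Ang II, with or without FI, lay above every saline library, and the groups with and without FI overlapped. The saline values were also close together, with a highest-to-lowest ratio of 1.06, which 97.4% of 13435 genes exceeded. The log2 fold change of Ang II against saline was 1.20 ± 0.11 (standard error, SE), a ratio of 2.30. That of Ang II + FI against Ang II was 0.11 ± 0.11, and 0.09 ± 0.12 without Ang II + FI 3. Leaving out each library in turn gave 1.09 to 1.30 for the first and 0.01 to 0.21 for the second. An antisense gene, Gm15270, shares 665 bases of exon with Ccn2, and its 75 to 163 counts equalled 0.792% to 3.69% of those of Ccn2.

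Summed fibroblast markers ranged from 1570 to 2120 CPM with saline, 2070 to 2350 with Ang II and 1960 to 2050 with Ang II + FI. Most of each sum was Gsn. In Ang II against saline, 3 of the 8 fibroblast markers and 5 of the 8 macrophage markers were called higher and none of either lower. Over all genes, 1.57% were called higher and 0.662% lower. In Ang II + FI against saline, 2 and 3 were called higher and 0 lower, beside 0.719% and 0.259% of all genes. In Ang II + FI against Ang II none was called, beside 0% of all genes. None of these markers was at 0 in a library. Macrophage markers summed to 183 to 228, 300 to 339 and 268 to 309 CPM. The part of these cell types in the level of Ccn2 and of the other genes was not tested. In tissue RNA, more cells of a type and more RNA per cell cannot be told apart.

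Ccn1 (CYR61, chromosome 3, 145646976 to 145649981), the other immediate target of YAP in this family, did not follow Ccn2. It held 55.0, 49.5, 47.1 and 34.5 CPM with saline, 44.2, 54.3, 30.7 and 47.6 CPM with Ang II, and 47.0, 53.3, 61.8 and 40.6 CPM with Ang II + FI. The 3 groups overlapped. The log2 fold change was -0.10 ± 0.18 for Ang II against saline and 0.26 ± 0.18 for Ang II + FI against Ang II, or 0.19 ± 0.19 without Ang II + FI 3.

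The other CCN genes were scarce. Ccn3 (NOV, chromosome 15, 54745702 to 54754039), a member often described as opposing CCN2, held 3.22, 1.79, 2.22 and 1.70 CPM with saline and 3.41, 3.08, 3.26 and 3.88 CPM with Ang II. With FI it held 2.78, 3.10, 3.28 and 2.52 CPM. Only the first saline library reached the Ang II range: the log2 fold change of Ang II against saline was 0.58 ± 0.21, and 0.85 ± 0.16 without saline 1. Ccn4 (WISP1, chromosome 15, 66891320 to 66923201) ranged from 0.658 to 1.26 CPM with saline, 1.14 to 1.99 with Ang II and 0.953 to 1.65 with Ang II + FI. Ccn5 (WISP2, chromosome 2, 163820861 to 163833146), which lacks the C-terminal domain of the other CCN proteins, ranged from 4.48 to 8.04, 7.78 to 11.6 and 5.24 to 11.3 CPM. For both genes the 3 groups overlapped, with log2 fold changes of Ang II against saline of 0.53 ± 0.26 and 0.46 ± 0.24. With FI against Ang II, Ccn3, Ccn4 and Ccn5 had log2 fold changes of -0.16 ± 0.21, -0.21 ± 0.26 and 0.03 ± 0.24.

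**Figure D1:**
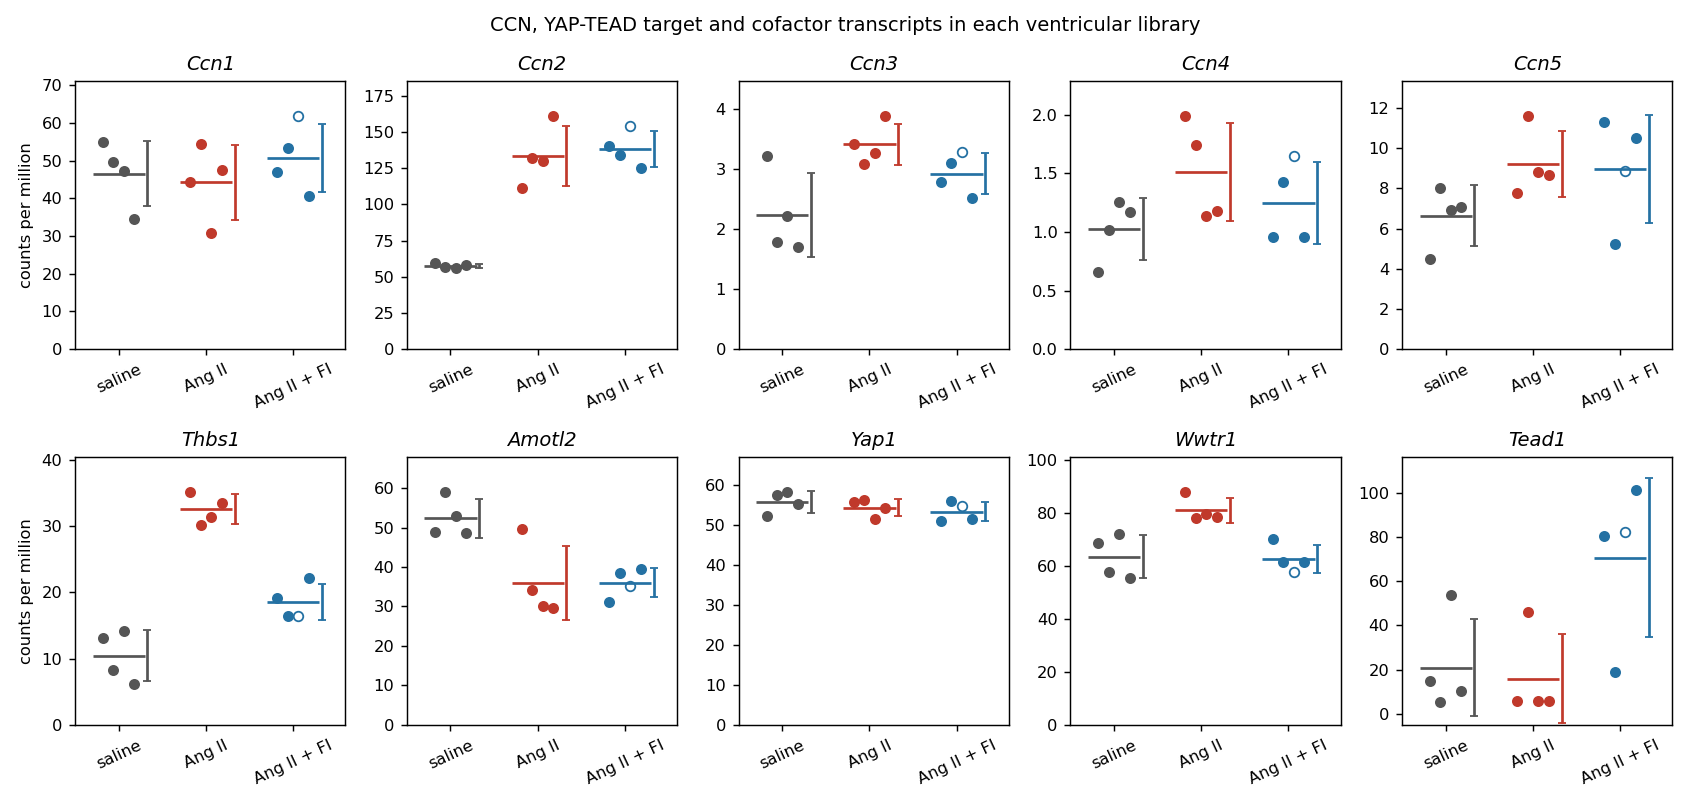
CPM of the 10 genes in each library, by group, with the group mean as a line and its SD as a bar beside it. The open circle is Ang II + FI 3, and the vertical axis is linear. Ccn2 lies at 56.0 to 59.5 CPM with saline and at 111 CPM or above in all 8 libraries given Ang II, while Tead1 spans 5.42 to 53.6 CPM within the saline group alone.

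To compare levels between genes, CPM were divided by the length of the merged exons in kilobases (CPM per kb). With saline, Ccn1 at 23.0 ± 4.29 (SD, n = 4) and Ccn2 at 20.1 ± 0.525 CPM per kb overlapped at the top. Wwtr1 at 13.3, Amotl2 at 8.33 and Yap1 at 6.04 CPM per kb followed, each clear of its neighbours. Below them Ccn5 at 3.45, Thbs1 at 1.72, Tead1 at 1.55 and Ccn3 at 0.778 CPM per kb formed a run in which neighbours overlapped, and Ccn4 at 0.185 CPM per kb lay clear below Ccn3. With Ang II the order was led by Ccn2 alone, at 46.7 ± 7.26 CPM per kb, above Ccn1 at 21.9 ± 4.93. With Ang II + FI it was again Ccn2, at 48.4 ± 4.26, above Ccn1 at 25.1 ± 4.49 CPM per kb. Yap1, Amotl2, Thbs1 and Ccn5 had means of 4.78 to 5.88 CPM per kb with Ang II, each overlapping the next.

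The make-up of the CCN transcripts differed between saline and the groups given Ang II. Ccn2 was 40.3% to 48.4% of the summed CPM per kb of the 5 CCN genes with saline, 57.4% to 68.3% with Ang II and 59.5% to 62.3% with Ang II + FI. Ccn1 was 40.9% to 52.8%, 22.8% to 33.4% and 28.5% to 34.2%. The ratio of Ccn2 to Ccn1 per kb was 0.764 to 1.18 with saline, 1.72 to 2.99 with Ang II and 1.76 to 2.18 with Ang II + FI. Both shares and the ratio separated saline from the other groups without overlap, and the groups with and without FI overlapped. Ccn2 enters each of these values and was chosen for this pattern, so they restate the choice. Ccn1 itself overlapped between the groups in CPM.

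**Figure D2:**
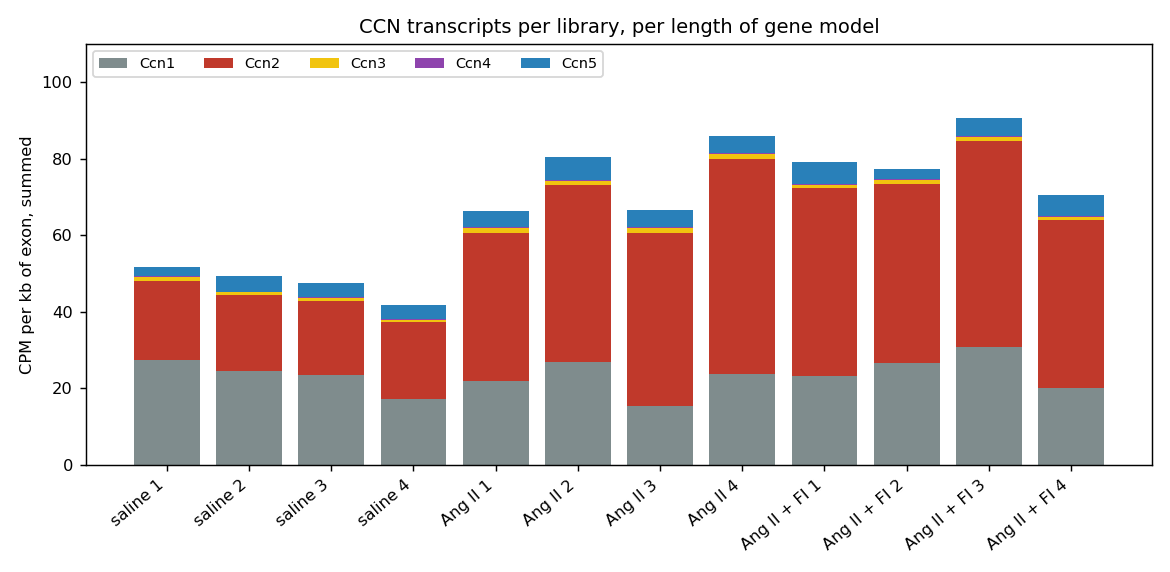
Summed CPM per kb of exon of the CCN genes in each library, stacked by gene. The bars start at 0. The sum is 41.8 to 51.6 CPM per kb with saline and 66.3 CPM per kb or more in each library given Ang II. Ccn2 makes up the tallest part in each library given Ang II and in saline 4, and Ccn1 in saline 1, saline 2 and saline 3. Ccn4, under 0.4 CPM per kb in every library, is barely visible.

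Thbs1 (thrombospondin-1, chromosome 2, 118111876 to 118127133), a matricellular protein that activates latent TGF-beta and binds CD47, was highest with Ang II and lay between with FI. The saline libraries held 13.1, 8.34, 14.2 and 6.17 CPM, the Ang II libraries 35.2, 30.2, 31.4 and 33.5 CPM, and the Ang II + FI libraries 19.1, 16.5, 16.4 and 22.2 CPM. No pair of groups overlapped. The log2 fold change of Ang II against saline was 1.62 ± 0.23, a ratio of 3.07. Adding FI gave, against Ang II, -0.74 ± 0.23, a ratio of 0.599, and -0.66 ± 0.24 without Ang II + FI 3. Platelets carry thrombospondin-1: the 6 platelet markers summed to 9.27 to 10.9 CPM with saline, 12.6 to 15.2 with Ang II and 11.0 to 15.4 with Ang II + FI. Almost all of that was Pf4, and Gp9 and Treml1 were at 0 in at least 1 library. The part of platelets in the level of Thbs1 was not tested. The lincRNA Gm29233 shares 208 bases of exon with Thbs1 on the opposite strand.

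Amotl2 (angiomotin-like 2, chromosome 9, 102716672 to 102733418) is a junction protein that is both induced by YAP and restrains it. Its values were lower in most libraries given Ang II, the opposite of Ccn2. It held 48.8, 59.1, 52.9 and 48.7 CPM with saline, 49.6, 34.3, 30.0 and 29.6 CPM with Ang II, and 31.2, 38.6, 35.1 and 39.4 CPM with Ang II + FI. Ang II 1 alone reached the saline range, and on CPM scaled by the trimmed mean of M-values (TMM) it did not, so the groups then did not overlap. The log2 fold change of Ang II against saline was -0.57 ± 0.14, and -0.74 ± 0.11 without Ang II 1. Against Ang II, FI gave 0.09 ± 0.14, or 0.13 ± 0.15 without Ang II + FI 3.

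The coactivators differed from each other. Wwtr1 (TAZ, chromosome 3, 57455649 to 57575910) held 68.5, 57.5, 72.2 and 55.6 CPM with saline and 88.0, 78.1, 79.4 and 78.3 CPM with Ang II. With FI it held 70.2, 61.5, 57.5 and 61.4 CPM. The Ang II libraries lay above all others, and saline and Ang II + FI overlapped. The log2 fold changes were 0.33 ± 0.11 for Ang II against saline and -0.30 ± 0.11 for Ang II + FI against Ang II, the latter -0.23 ± 0.10 without Ang II + FI 3. Yap1 (chromosome 9, 7931999 to 8004596) lay between 51.1 and 58.4 CPM in all 12 libraries, with log2 fold changes of -0.06 ± 0.06 and 0.04 ± 0.06. The ratio of Wwtr1 to Yap1 per kb was 1.94 to 2.53 with saline, 2.69 to 3.06 with Ang II and 2.03 to 2.66 with Ang II + FI. An opposite-strand transcript, Gm20416, shares 116 bases of exon with Yap1.

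Summed vascular and fibroblast markers, like Wwtr1, were lower with FI than with Ang II alone. The 8 smooth muscle and pericyte markers summed to 775 to 977 CPM with saline, 970 to 1110 with Ang II and 778 to 910 with Ang II + FI. The 8 endothelial markers summed to 504 to 809, 696 to 945 and 549 to 657 CPM. In plain CPM, not scaled by TMM, both sums were lower in every Ang II + FI library than in every Ang II library. So was the fibroblast sum, at 1960 to 2050 CPM with Ang II + FI and 2070 to 2350 with Ang II. Marker by marker, 2 of 8 endothelial and 1 of 8 smooth muscle and pericyte markers were lower without overlap, beside 5.12% of all genes. So were 3 of 8 fibroblast and 1 of 8 macrophage markers. None was called, beside 0% of all genes. Most of the smooth muscle and pericyte sum was Rgs5. No marker of these lists was at 0, and the part of these cell types in the values of Wwtr1 was not tested. Between Ang II and saline, 1 of the 8 smooth muscle and pericyte markers and 0 of the 8 endothelial markers were called higher, beside 1.57% of all genes.

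Of the 10 genes, edgeR called 2 (Ccn2 and Thbs1) higher with Ang II and 0 lower, a call being an adjusted p under 0.05. DESeq2 and limma-voom called these and also Amotl2, lower. Over all 17376 genes tested, 1.57% were called higher and 0.662% lower, and without Ang II + FI 3 these shares were 2.49% and 1.37%, with Amotl2 then called lower (-0.58 ± 0.14). In plain CPM, 3 genes (Ccn2, Thbs1 and Wwtr1) were higher without overlap and 0 lower, against 7.74% and 4.56% of all genes, or 7.36% and 6.11% on TMM-scaled CPM. For Ang II + FI against Ang II, edgeR called none of the 10, nor did DESeq2 or limma-voom, beside 0% higher and 0% lower of all genes. Over all genes, 1729 had an unadjusted p under 0.05 there, and DESeq2 called 45. Without Ang II + FI 3 the shares were 0% and 0.00565%. Without overlap, 2 genes (Thbs1 and Wwtr1) were lower with FI and 0 higher, beside 5.12% and 0.858% of all genes, or 3.08% and 2.32% on TMM-scaled CPM. These comparisons chose the genes, and nothing is read from the counts.

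**Figure D3:**
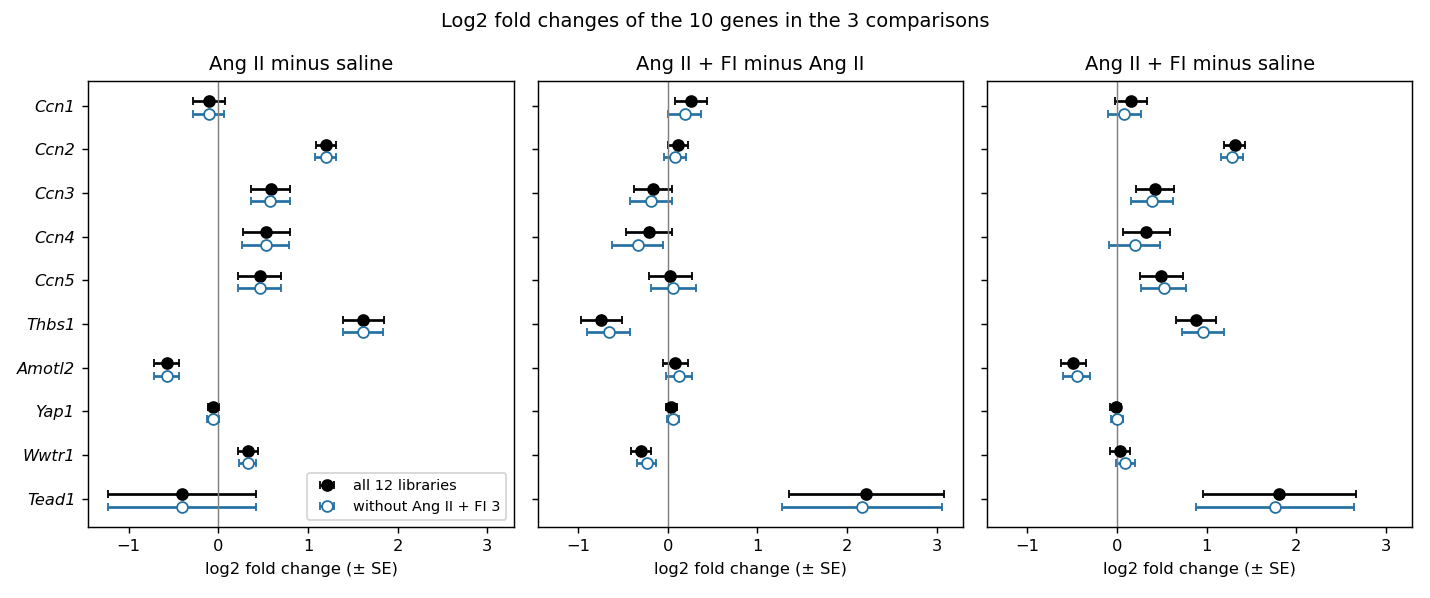
Log2 fold changes of the 10 genes with their SE in the 3 comparisons, filled for all 12 libraries and open without Ang II + FI 3. Ccn2 and Thbs1 lie farthest above 0 for Ang II against saline, and Thbs1 and Wwtr1 lie below 0 for Ang II + FI against Ang II. The bars of Tead1 are the widest in each panel.

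Tead1 (chromosome 7, 112679318 to 112906807), the DNA-binding partner of YAP and TAZ, varied widely within every group. The saline libraries held 14.8, 5.42, 53.6 and 10.3 CPM, the Ang II libraries 5.94, 46.2, 5.81 and 5.95 CPM, and the Ang II + FI libraries 80.2, 18.9, 82.4 and 101 CPM. The ratio of the highest to the lowest library was 9.89 with saline, where 0.64% of 13435 genes had a larger one, 7.96 with Ang II (1.43%) and 5.33 with Ang II + FI (6.01%). The median gene had ratios of 1.35, 1.32 and 1.40. All 3 groups overlapped. The log2 fold change was -0.41 ± 0.83 for Ang II against saline and 2.22 ± 0.86 for Ang II + FI against Ang II. Without Ang II 2 these were -1.82 ± 0.73 and 3.63 ± 0.79, and without saline 3 the first was 0.59 ± 0.81. No other annotated gene shares exon bases with Tead1.

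The other TEAD genes did not vary in this way. In CPM per kb, Tead2 ranged from 0.442 to 1.04, Tead3 from 0.722 to 1.45 and Tead4 from 0.123 to 0.528 over the 12 libraries, while Tead1 ranged from 0.399 to 7.41. Tead1 was 13.3% of the summed TEAD level in Ang II 1 and 83.5% in Ang II + FI 4. The cause of this spread was not tested.

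**Figure D4:**
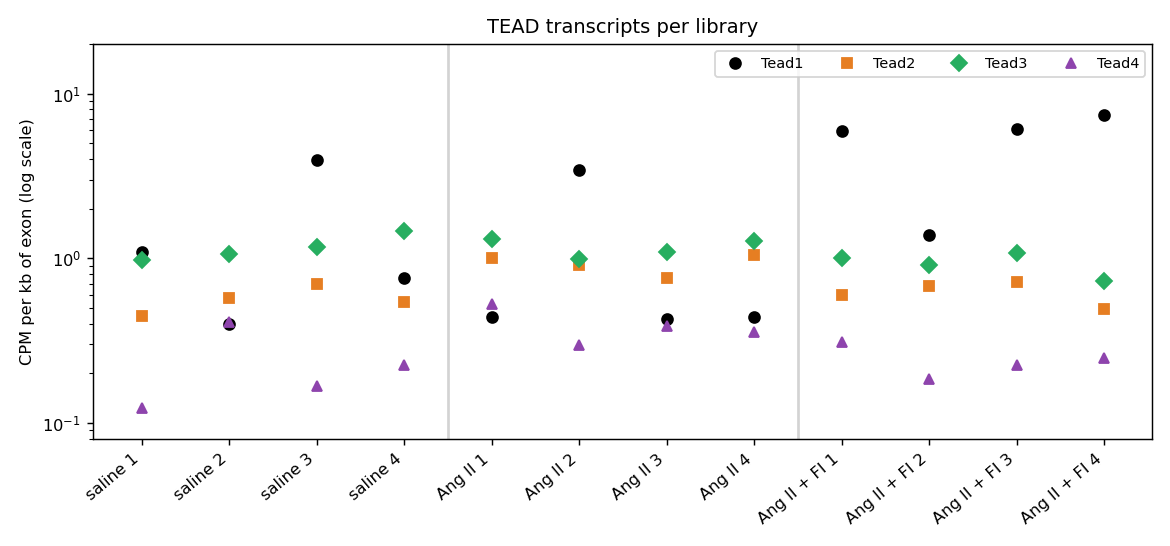
CPM per kb of exon of the TEAD genes in each library, on a log axis, with grey lines between the groups. Tead1 is above the other TEAD genes in 7 of the 12 libraries and below Tead3 in the other 5.

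Ang II + FI against saline shares its libraries with both other comparisons. The genes were chosen with earlier results of these data known. Adjusted p-values and calls in Ang II + FI against saline are therefore a description and no independent support. Ccn2 had a log2 fold change of 1.31 ± 0.11 there, and 1.28 ± 0.12 without Ang II + FI 3. Of the other 9 genes, none passed the test. Thbs1 came nearest, at 0.88 ± 0.23 (edgeR adjusted p = 0.0874), with all 4 Ang II + FI libraries above all 4 saline libraries. Amotl2 was at -0.49 ± 0.14 (adjusted p = 0.110), with all 4 below all 4 saline libraries. DESeq2 called both, Thbs1 at 0.87 ± 0.23 (adjusted p = 0.00646) and Amotl2 at -0.49 ± 0.15 (adjusted p = 0.029). Tead1 was at 1.81 ± 0.85 (adjusted p = 0.301), Ccn5 at 0.49 ± 0.24 (0.316), Ccn3 at 0.42 ± 0.21 (0.339) and Ccn4 at 0.33 ± 0.26 (0.574). Ccn1 at 0.16 ± 0.18 (adjusted p = 0.701), Wwtr1 at 0.03 ± 0.11 (0.919) and Yap1 at -0.02 ± 0.06 (0.925) lay nearest 0. Over all genes, 0.719% were called higher and 0.259% lower, or 0.932% and 0.311% without Ang II + FI 3. Groups did not overlap in 3.52% of genes upward and 6.06% downward, or 5.01% and 4.30% on TMM-scaled CPM. Beside these were 2 members upward (Ccn2, through its choice, and Thbs1) and 1 downward (Amotl2), and nothing is read from these counts.

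The rest of the pathway was read from 5 lists holding 72 other genes, of which 69 were tested and none was a member. The lists were drawn up with earlier results of these data known, so their calls are a description and no independent support. With Ang II, edgeR called 8 higher and 0 lower, beside 1.57% and 0.662% of all genes. With FI against Ang II none was called by edgeR, none by limma-voom and 1 by DESeq2. By edgeR 15 had an unadjusted p under 0.05 there, beside 1729 of all 17376 genes. With Ang II + FI against saline, 3 were called higher and 0 lower, beside 0.719% and 0.259% of all genes. The shares over all genes are the background of each list count that follows. The count of 8 rested on single libraries: it was 2 without saline 1 or without Ang II 4, 3 without saline 4 or Ang II 3, 4 without Ang II 2, 5 without saline 2 and 15 without Ang II + FI 3.

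The matricellular proteins outside the CCN family held 4 of these 8 calls. With Ang II, 4 of 13 tested rose and 0 fell, and their median log2 fold change was 0.60, beside 0.005 over all genes. Postn (periostin, secreted by activated fibroblasts) went from 34.2 ± 6.36 to 121 ± 11.7 CPM (1.80 ± 0.17, edgeR adjusted p = 7.16e-04), and was 71.3 ± 12.2 CPM with FI (mean ± SD, n = 4). Thbs4, a thrombospondin of stressed heart muscle, went from 3.30 ± 0.318 to 10.4 ± 2.28 CPM (1.63 ± 0.18, adjusted p = 0.00137), and was 7.36 ± 1.36 CPM with FI. Both calls held in each of the 22 alternative settings. Sparc, a collagen-binding glycoprotein, went from 292 ± 55.7 to 542 ± 68.5 CPM (0.87 ± 0.16, adjusted p = 0.0187), but its adjusted p reached 0.0655 when saline 1 or Ang II 4 was left out or replicates were blocked. Thbs3 went from 4.36 ± 0.473 to 6.69 ± 1.20 CPM (0.60 ± 0.14, adjusted p = 0.0499), a call that 15 of the 22 settings did not keep, among them each saline and each Ang II library, Ang II + FI 2 and Ang II + FI 4 left out, with an adjusted p of up to 0.136.

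With FI the median of the same list was -0.34 against Ang II, beside 0.018 over all genes. Postn at -0.69 ± 0.16 (edgeR adjusted p = 0.411, called by DESeq2 alone) and Sparc at -0.45 ± 0.16 (adjusted p = 0.421) were lower in all 4 Ang II + FI libraries than in any Ang II library. Thbs4 at -0.41 ± 0.18 (adjusted p = 0.478) overlapped. Without Ang II + FI 3, Postn was at -0.58 ± 0.15, Sparc at -0.36 ± 0.15 and Thbs4 at -0.30 ± 0.16, and the list median was -0.30. These 2 comparisons share the Ang II libraries. Against saline, Postn (1.11 ± 0.16, adjusted p = 0.0120) and Thbs4 (1.21 ± 0.18, adjusted p = 0.0127) rose with Ang II + FI, 2 of 13. Postn no longer passed when only these 2 groups were fitted (adjusted p = 0.0523). Ccn6, the sixth CCN gene, held 0 to 0.116 CPM and was not tested.

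The signature of YAP and TAZ target genes held values on both sides of 0. With Ang II, edgeR called 2 of 19 higher and 0 lower, and 9 values were above 0 and 10 below, with a median of -0.007. An unadjusted p under 0.05 was found for 10 of the 19, beside 2915 of all 17376 genes. Without Ang II + FI 3, 5 were called higher, beside 2.49% of all genes. DESeq2 called 5 higher and 1 lower, the last being F3, the clotting initiator tissue factor, which is named after its value was seen (-0.39 ± 0.12 and adjusted p = 0.117 by edgeR). Axl, a receptor tyrosine kinase, went from 56.1 ± 7.94 to 82.5 ± 11.0 CPM (0.55 ± 0.12, adjusted p = 0.0324). Ccdc80, a matrix protein, went from 50.4 ± 6.62 to 73.0 ± 6.34 CPM (0.52 ± 0.10, adjusted p = 0.0187). Adjusted p rose to at most 0.106 for Axl and 0.0636 for Ccdc80 in other settings, and both calls ended without saline 1, 2 or 4 or Ang II 3 or 4, that of Axl also without Ang II 2 or Ang II + FI 4, with no filter on low counts, with replicates blocked, and without Ang II 3 and Ang II + FI 3 together. Ankrd1, a cardiac ankyrin-repeat protein and textbook YAP target, had the pattern of Ccn2 at a much higher level: 683 ± 220 CPM with saline, 1370 ± 355 with Ang II and 1420 ± 341 with Ang II + FI. The groups given Ang II did not overlap saline, and the log2 fold change of 0.98 ± 0.25 did not pass (adjusted p = 0.0637), but passed without Ang II + FI 3 (adjusted p = 0.0403). With FI against Ang II, Ankrd1 was at 0.11 ± 0.25 (adjusted p = 0.922), and -0.03 ± 0.25 without Ang II + FI 3. Tgfb2, the TGF-beta 2 ligand, was 4.47 ± 1.60, 7.18 ± 1.26 and 6.98 ± 0.545 CPM in saline, Ang II and Ang II + FI (0.68 ± 0.25 for Ang II against saline, adjusted p = 0.178).

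The Hippo kinases and their adaptors and activators showed no call in 21 genes tested in any comparison by edgeR. An unadjusted p under 0.05 was found for 3 (Ang II against saline), 3 (Ang II + FI against Ang II) and 4 (Ang II + FI against saline). Beside these were 2915, 1729 and 3002 of all 17376 genes. DESeq2 called 1 of the 21 with Ang II, the protocadherin Dchs1, which is named after its value was seen. The median for Ang II against saline was 0.043. The kinases Lats1 (0.07 ± 0.11) and Lats2 (-0.02 ± 0.13), which phosphorylate YAP and TAZ, were near 0 with Ang II, as were the upstream kinases Stk3 (0.16 ± 0.14) and Stk4 (-0.03 ± 0.09). Under FI, against Ang II, they were at -0.08 ± 0.11, -0.18 ± 0.13, -0.07 ± 0.14 and 0.03 ± 0.09, with adjusted p of 0.67 or above.

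Among other TEAD factors and Vestigial-like cofactors, 1 of 5 tested rose with Ang II and the median was 0.70. Tead2 went from 2.70 ± 0.490 to 4.44 ± 0.616 CPM (0.70 ± 0.16, adjusted p = 0.0453), and the call ended in 12 of 22 settings, with an adjusted p of up to 0.125, among them each Ang II library, saline 1, 2 or 4, and Ang II + FI 1 or 2 left out. With FI it was 2.97 ± 0.471 CPM, lower in all 4 libraries than with Ang II (-0.52 ± 0.16, adjusted p = 0.411, and -0.56 ± 0.18 without Ang II + FI 3). Vgll3, another Vestigial-like cofactor, named after its values were seen, had the list's largest change: 2.29 ± 0.904 CPM with saline, 7.34 ± 1.09 with Ang II and 3.50 ± 2.14 with Ang II + FI. Its log2 fold change with Ang II of 1.66 ± 0.40 did not pass (edgeR adjusted p = 0.0545), but did without Ang II + FI 3 (adjusted p = 0.0376) and by DESeq2. Ang II did not overlap saline, and Ang II + FI did. Tead4 (0.74 ± 0.35, adjusted p = 0.313) and Vgll4, a cofactor that competes with YAP for TEAD (-0.16 ± 0.14, adjusted p = 0.654), did not pass.

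Of the 13 receptors of CCN proteins and thrombospondin-1, 1 rose with Ang II and the median was 0.099. Itga5, the alpha subunit of the fibronectin receptor, went from 32.7 ± 4.11 to 46.8 ± 1.88 CPM (0.51 ± 0.10, adjusted p = 0.0293). With Ang II + FI it was 47.9 ± 7.67 CPM, which passed against saline (0.60 ± 0.10, adjusted p = 0.0242) and was 0.09 ± 0.10 against Ang II (adjusted p = 0.81). The call against saline ended without saline 1, 2 or 4 for both groups, without Ang II 2, 3 or 4 for Ang II (adjusted p up to 0.0876) and without Ang II + FI 1 for Ang II + FI (up to 0.0852). It also ended for Ang II with replicates blocked or without Ang II 3 and Ang II + FI 3 together, and for Ang II + FI when only the 2 groups were fitted. Itgb3, the beta subunit that pairs with Itgav, was scarce, at 0.954 ± 0.233, 1.56 ± 0.442 and 0.853 ± 0.252 CPM. It did not pass with Ang II (0.69 ± 0.29, adjusted p = 0.255) or with FI against Ang II (-0.81 ± 0.29, adjusted p = 0.43, and -0.90 ± 0.33 without Ang II + FI 3). Cd47, the receptor of thrombospondin-1, was level (0.06 ± 0.07 with Ang II, adjusted p = 0.737). Itgav was at -0.19 ± 0.58 (adjusted p = 0.929), with 2 low libraries, Ang II 3 at 2.43 CPM and Ang II + FI 3 at 4.87 CPM, beside 18.7 to 25.7 CPM in the others.

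**Figure D5:**
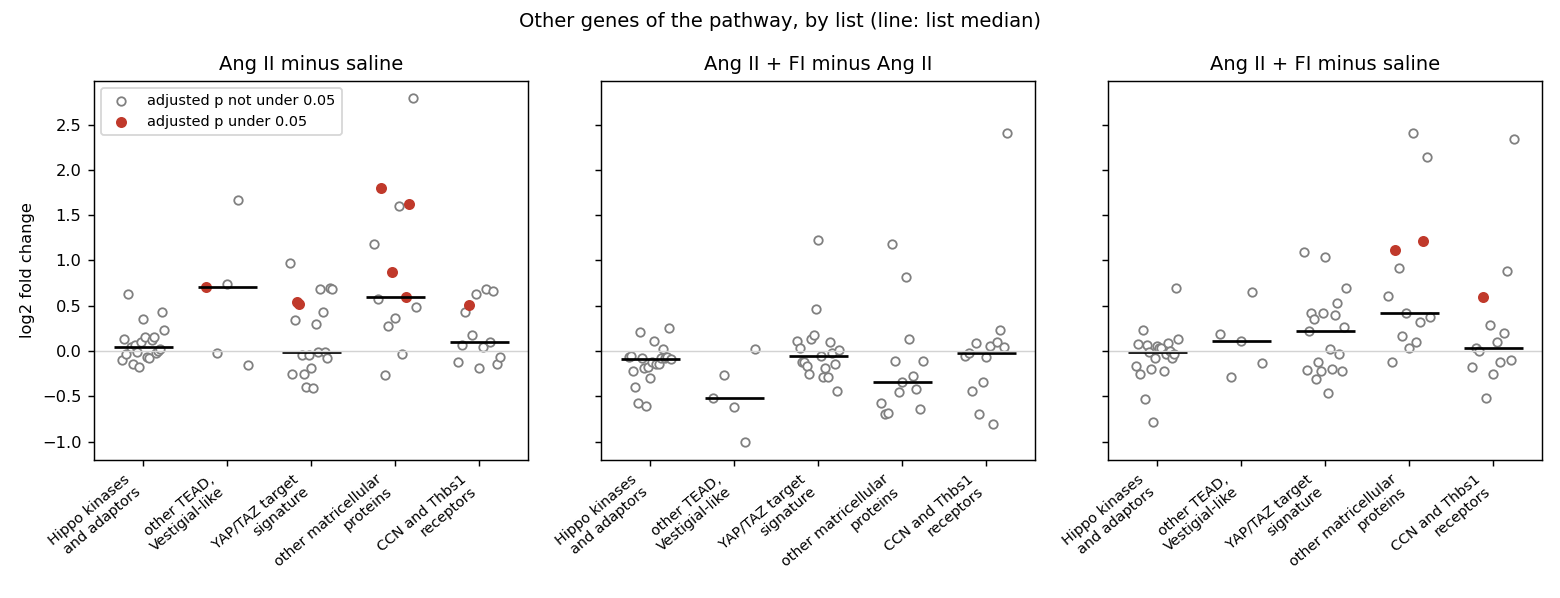
Log2 fold changes of the other pathway genes in 5 lists, 1 point per gene, with the list median as a line. Filled points passed the test. Called genes are all above 0, 4 of the 8 in the first panel are matricellular, and the middle panel has none. The receptor at 2.40 in the middle panel is Sdc4, which held 150 CPM in Ang II + FI 3 and 6.52 to 9.25 CPM in the other libraries.

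To find genes that moved across libraries as Ccn2 did, Pearson's r of log2(CPM + 0.5) was taken over 12 libraries and 13182 genes averaging 1 CPM or more. The r values share the libraries and largely the difference between saline and the rest, and are a description. The 5 highest were 1500009L16Rik (0.975), Mybpc2 (0.942), Fstl3 (0.941), Fibin (0.937) and Bambi (0.935). Without Ang II + FI 3 they ranked 1, 3, 8, 10 and 5. Mybpc2, a myosin-binding protein of fast skeletal muscle, held 2.45 to 5.13 CPM with saline, 15.4 to 19.3 with Ang II and 17.0 to 20.1 with Ang II + FI. Fstl3, a secreted antagonist of activins, held 1.56 to 2.15, 4.39 to 6.19 and 5.02 to 5.70 CPM. Bambi, a decoy receptor of TGF-beta signals, held 11.2 to 12.5, 14.7 to 19.7 and 18.1 to 21.9 CPM. Each of the 5 was higher in all 8 libraries given Ang II than in all 4 given saline. They were picked for likeness to Ccn2, which separates these libraries too, so nothing is read from that. In the order above, Spearman's rho with Ccn2 was 0.762, 0.573, 0.608, 0.699 and 0.692. Among the pathway members, Thbs1 (Pearson's r 0.754) and Ccn3 (0.731) were closest to Ccn2, but ranked only 345 and 424 over all genes compared. Ccn1 was at 0.117, and Amotl2 was at -0.871.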

How the data were processed

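Per the submitters' processing notes, the authors used HISAT, featureCounts 1.5.0-p3 and DESeq 1.8.3 with build GRCm38, and deposited raw counts per gene, 1 column per library. The extraction is labelled TRIzol in one field and RNeasy in another, and the libraries were made with a SMARTER mRNA kit, per the labels' protocols. Strand setting, annotation release and the handling of multi-mapping reads are not given in the sources that were used. Overlapping antisense genes are therefore uncertain. Coordinates and exon lengths came from GENCODE M21 (GRCm38), which matched 55240 gene IDs (99.7%). No count was found for 27438 genes.

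Groups came from the treatment label. CPM are counts scaled to a library total of 1000000. Genes passing filterByExpr (17376) were scaled by TMM and tested with edgeR 4.0.16 (R 4.3.3), quasi-likelihood, with the 12 libraries fitted together under 3 group means and no covariates. P-values were adjusted by Benjamini-Hochberg over all tested genes and called under 0.05. The SE is the absolute log2 fold change divided by the square root of F. DESeq2 1.42.0, limma-voom (limma 3.58.1), other scalings, filters and designs, and each library left out, were alternatives. The procedure was tested on simulated data. Same-numbered libraries did not deviate together, so the numbers were not used as pairs.

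The members, the 5 pathway lists, the 8 marker lists and the tests were chosen with earlier results of these data known. Named are all members, up to 6 called genes of each list by p, a set of 14 other pathway genes, and the 5 genes most like Ccn2. Adipocyte markers summed to 0.0566 to 0.734 CPM. Promoter windows were read in Python 3.11.15.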

Additional observations from a re-analysis of the deposited data

Results flagged for a closer look

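In 4 of 87 groups of 4 libraries, 1 library stood apart from the others by Dixon's test, and chance flags about 1 group in 20. Tead1 held 46.2 CPM in Ang II 2, where the next library of the group held 5.95 CPM. Wwtr1 held 88.0 CPM in Ang II 1, with the next at 79.4 CPM. Tgfb2 was low in Ang II 1, at 5.31 CPM, with the next at 7.63 CPM. Itgav was low in Ang II 3, at 2.43 CPM, with the next at 24.7 CPM.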

How the results depend on the processing

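The log2 fold changes of the 10 members kept within 1 SE of the reported value in 216 of 220 settings and comparisons for Ang II against saline and in 217 of 220 for Ang II + FI against Ang II. In Ang II + FI against saline, 215 of 220 kept direction and side of the threshold, 2 passed it (both under DESeq2), and 3 turned sign, all of them Wwtr1, which ran from -0.039 to 0.097 when single libraries were left out. With FI against Ang II, Ankrd1 ran from -0.026 to 0.263 when single libraries were left out, and was -0.091 without both Ang II 3 and Ang II + FI 3, a setting chosen after seeing the data.

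Counts of calls moved more. For Ang II against saline, 388 genes and 8 other pathway genes were called. These became 1117 and 19 with DESeq2, 190 and 5 with no filter on low counts, and 13 pathway genes with at least 1 CPM in 4 libraries. Leaving out 1 library gave 90 to 683 genes and 2 to 15 pathway genes, lowest without saline 4 and highest without Ang II + FI 3 for genes. For Ang II + FI against Ang II, 0 genes became 45 with DESeq2, where 1 pathway gene (Postn) was called, 0 to 1 with 1 library left out, and 2 without Ang II 3 and Ang II + FI 3. For Ang II + FI against saline, 170 genes became 841 with DESeq2, with 3 members and 10 pathway genes. They became 106 with upper-quartile scaling, 64 with no filter, 261 with at least 1 CPM in 4 libraries, 48 (with 1 pathway gene) when only the 2 groups were fitted, and 41 (without Ang II + FI 4) to 220 (without Ang II + FI 3) with 1 library left out. RLE scaling, limma-voom and leaving out mitochondrially encoded genes kept each of these counts within 1.5 times. The cause was not tested.

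With the replicate block, Ang II against saline called 124 genes and 3 pathway genes, and Ang II + FI against saline called 61 genes. Of 12 same-numbered pairs, 1 had deviations correlated above 0.1 (range -0.0572 to 0.105), and 4 libraries were closest to their own number, so the number is not a pairing. Of the 5 genes most like Ccn2, 3 remained without Ang II + FI 3 and 0 by Spearman's rho. Ccn3, Ccn4 and the platelet markers rest on low counts, and 4 libraries a group limit all precision.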
